A study of Mus musculus with 4 samples.

Results

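The immediate early transcription factors are genes that quiescent or dividing cells switch on within minutes of a growth factor or a stress, without needing new protein. They were examined as 10 genes, Fos, Fosb, Fosl1, Jun, Junb, Egr1, Egr2, Egr3, Atf3 and Nr4a1, chosen by symbol from the 54532 gene IDs of a raw count table, and each symbol matched 1 ID. All 10 passed a filter on low counts (at least 1 CPM, the count scaled to a fixed library size, in at least 2 libraries), as did 13306 genes in all. The cells were fibroblasts cultured from C57BL/6 mouse embryos (MEFs), a primary culture that also keeps some other cell types of the embryo. They were harvested at passage 4 while growing exponentially in medium with serum, so the values describe steady growth and not a response to a stimulus. 1 library was sequenced for each of 4 genotypes: Trp53-/-; Zfp871-/- (double null), Trp53-/-, Zfp871-/- and wild type (WT). Per the series description, double-null and Trp53-/- cells came from an intercross of double heterozygotes, Zfp871-/- cells from an intercross of Zfp871 heterozygotes, and WT cells from either. Whether a library holds cells of 1 embryo or of several, and how the alleles were made, is not given in the sources used here. Trp53 encodes p53, the transcription factor that stops division after damage, and Zfp871 encodes a zinc finger protein that the series title ties to p53 and its ligase Mdm2.

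No genotype was repeated, so each difference between 2 libraries has no replicate check and compares libraries rather than genotypes. Each ratio is given on the log2 scale with a 95% interval (exact, Clopper-Pearson, on the pair of counts) that covers counting error only. The libraries held 22324599 counts in the double null, 21004078 in Trp53-/-, 19974054 in Zfp871-/- and 19303167 in WT. Trp53 had 1382 and 1233 counts in the double null and Trp53-/- and 2413 and 2383 in Zfp871-/- and WT, while Zfp871 had 307 and 327 in the double null and Zfp871-/- and 784 and 660 in Trp53-/- and WT, so RNA of both targets was lower where the label says null. All 16 fibroblast markers examined were detected in each library. Their summed level was 38923 and 43750 CPM in the double null and Trp53-/-, against 54650 and 54051 CPM in Zfp871-/- and WT. Single markers went both ways. In Trp53-/- against WT, 4 of the 16 reached 2-fold upward and 1 downward, where 8.9% of all genes did so upward and 8.88% downward. Markers of other cells differed between libraries too. The summed level of 18 macrophage markers was 1028 and 1159 CPM in the double null and Trp53-/-, against 94.6 and 81.5 CPM in Zfp871-/- and WT, and the summed level of 11 muscle and chondrocyte markers was 58.9, 56.2 and 101 CPM in the double null, Trp53-/- and Zfp871-/-, against 775 CPM in WT. In WT most of that sum was Col2a1, the cartilage collagen, with 11633 counts, and 4 of these 11 markers were at 0 there. The summed level of 10 epithelial and mesothelial markers was 18.5, 24.3 and 38.9 CPM in the double null, Trp53-/- and Zfp871-/-, against 13.7 CPM in WT, where 1 of the 10, Epcam, was at 0. Of the 7 of them past the filter, 7 reached 2-fold upward in Zfp871-/- against WT and 5 in Trp53-/- against WT. Endothelial markers summed to 18.9 to 35.4 CPM and neural ones to 75.7 to 114 CPM. In bulk RNA, fewer cells of a type and less RNA per cell cannot be told apart.

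The family is a first answer to signals at the cell surface. The Ras and MAP kinase cascade phosphorylates partners of serum response factor (SRF), which sits on the CArG box, the core of the serum response element, and drives Fos and the Egr genes. Fos and Jun proteins pair through leucine zippers as AP-1, Egr proteins bind GC-rich DNA through zinc fingers, and dual-specificity phosphatases and Sprouty proteins, themselves induced by the cascade, shut it down again.

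The 10 genes did not move as a block. The AP-1 genes Fos, Fosb, Fosl1, Jun and Junb stayed within 1.5-fold in every pair of libraries compared. Egr1 and Egr3 were lower in both Trp53-null libraries than in those with Trp53, and Atf3 was higher in them. Egr2 and Nr4a1 were lowest in WT and between 1.77-fold and 2.26-fold higher in each other library. Egr1 was the 1 gene of the 10 that passed a test. It fell with Trp53 loss, in a test that called 9.33% of all genes.

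**Figure D1:**
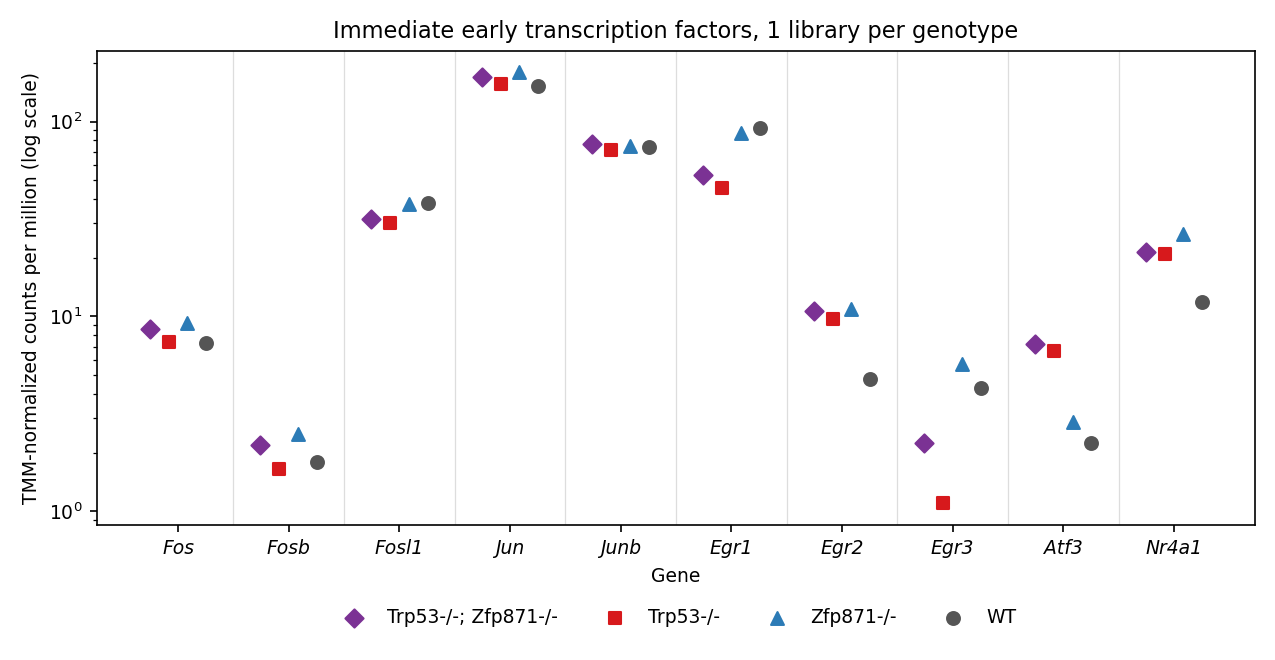
Level of each immediate early gene in each library, in CPM after TMM scaling, on a log axis. 1 point is 1 library, and there are no replicates. Jun is highest in every library (152 to 179 CPM) and Fosb or Egr3 lowest. Egr1 and Egr3 are lower and Atf3 is higher in the double null and Trp53-/- than in Zfp871-/- and WT, while Egr2 and Nr4a1 are lowest in WT.

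Across genes, levels can be compared only per length of transcript, for which the FPKM values deposited by the authors served. Jun, the main partner in AP-1, stood highest of the 10 in each library, with 52.7, 48.3 and 56.1 FPKM in the double null, Trp53-/- and Zfp871-/-, against 47.4 FPKM in WT. Junb, a Jun relative that often dampens growth, came next with 33.1, 30.8 and 32.5 FPKM, against 31.7 FPKM in WT. Fosl1, a Fos relative that appears later than Fos and lasts longer, followed at 17.6 to 22.3 FPKM and Egr1 at 10.1 to 20.6 FPKM, and the order of these 4 genes was the same in every library. Fos itself lay far below, at 3.66, 3.14 and 3.91 FPKM in the double null, Trp53-/- and Zfp871-/-, against 3.07 FPKM in WT. Fosb was nearly silent, at 0.263 to 0.4 FPKM. Among the scarcer genes the order changed. Atf3 ranked above Egr2 in the double null (3.35 and 3.13 FPKM) and in Trp53-/- (3.07 and 2.84 FPKM), and below it in Zfp871-/- (1.33 and 3.2 FPKM) and WT (1.03 and 1.4 FPKM). With 1 library per genotype there is no spread against which to set such neighbours.

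Fos (chromosome 12, 85473890 to 85477273 in GRCm38/mm10) is the founding gene of the family. It had 200 counts in the double null, 162 in Trp53-/-, 173 in Zfp871-/- and 137 in WT. After scaling, these are 8.62, 7.43 and 9.2 CPM, against 7.27 CPM in WT, and the values lie close together. The log2 ratio for Zfp871 loss was 0.33 (0.01 to 0.67) in Zfp871-/- against WT and 0.21 (-0.09 to 0.52) in the double null against Trp53-/-. For Trp53 loss it was 0.03 (-0.31 to 0.37) in Trp53-/- against WT and -0.09 (-0.39 to 0.21) in the double null against Zfp871-/-, which turned to 0.05 with total counts as the scale. Of the 13306 genes, 14.1% had a ratio at or above that of Fos in the double null against Trp53-/- and 17.9% in Zfp871-/- against WT. The promoter is shown because it is the textbook immediate early promoter; capitals mark the TATA box.
Fos (chr12:85473640-85473889, plus strand): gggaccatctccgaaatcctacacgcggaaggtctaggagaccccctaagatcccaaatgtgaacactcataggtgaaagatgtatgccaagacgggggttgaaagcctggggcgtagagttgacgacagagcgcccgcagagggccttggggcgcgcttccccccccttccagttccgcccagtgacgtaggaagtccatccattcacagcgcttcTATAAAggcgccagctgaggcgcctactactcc

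That stretch is the 250 bases before the RefSeq start of Fos (RefSeq windows, GRCm38.p6). Motifs were searched on both strands of RefSeq windows of 300 bases, from 250 before to 50 after each start, for 7 members (Fos, Fosb, Jun, Junb, Egr2, Atf3 and Nr4a1). Searched were the TATA box (TATAAA, in 13.6% of all 32851 windows), the CRE (TGACGTCA, in 1.79%), the AP-1 element (TGANTCA, in 7.81%), the EGR element (GCGNGGGCG, in 5.55%), the CArG box (in 1.63%) and the p53 half-site (in 8.36%). No match overlapped a match to another motif in these windows. A match is a description of letters and no site or cause.

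The other Fos genes, like Fos, stayed within 1.5-fold in every pair compared, with Fosl1 somewhat lower without Trp53 than with it. Fosb, whose protein resembles Fos, had 51, 36 and 47 counts in the double null, Trp53-/- and Zfp871-/-, and 34 in WT. Each of its intervals included an equal level, the widest from -0.85 to 0.59 in Trp53-/- against WT, so at this depth a difference could not be detected. Fosl1 had 730 counts in the double null, 660 in Trp53-/-, 712 in Zfp871-/- and 722 in WT. Its log2 ratio was -0.34 (-0.5 to -0.19) in Trp53-/- against WT and -0.27 (-0.42 to -0.11) in the double null against Zfp871-/-, with -0.02 and 0.06 for Zfp871 loss in Zfp871-/- against WT and in the double null against Trp53-/-. Fosl1 is uncertain, since 1163 of its 2033 annotated exon bases overlap exons of Ccdc85b on the opposite strand and no strand setting for the counting is given.

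The Jun genes were counted deeply, and their differences were small. Jun (chromosome 4, 95049034 to 95052222) had 3909 counts in the double null, 3381 in Trp53-/-, 3370 in Zfp871-/- and 2868 in WT. For Zfp871 loss its log2 ratios were 0.23 (0.16 to 0.31) in Zfp871-/- against WT and 0.12 (0.05 to 0.19) in the double null against Trp53-/-, both above counting error and both far under 2-fold. For Trp53 loss the ratios were 0.03 (-0.05 to 0.1) in Trp53-/- against WT and -0.09 (-0.15 to -0.02) in the double null against Zfp871-/- (0.05 with total counts). Junb had 1773, 1556 and 1408 counts in the double null, Trp53-/- and Zfp871-/-, against 1386 in WT. Its log2 ratios lay between -0.04 and 0.1 in the 5 pairs, and those against WT for a single loss, 0.02 and -0.04, turned to -0.03 and 0.04 with total counts. Jun shares 232 exon bases with its antisense gene Junos, which had 32 to 50 counts per library. Junb shares 173 with Prdx2, a far more abundant gene with 3435 to 4110 counts.

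AP-1 also includes Fosl2, which is no member of the 10, and that gene changed the make-up of the pool. Summed over Fos, Fosb, Fosl1 and Fosl2, the Fos family stood at 41.3, 39.3 and 54.4 FPKM in the double null, Trp53-/- and Zfp871-/-, against 67.6 FPKM in WT. Summed over Jun, Junb and Jund, the Jun family stood at 112, 105 and 112 FPKM, against 106 FPKM in WT. The Jun family was thus 2.71, 2.68 and 2.07 times the Fos family, against 1.56 times in WT. Fosl2 alone had 18.9, 18.3 and 28.0 FPKM, against 42.0 FPKM in WT, which is 12.3%, 12.6% and 16.8% of the summed AP-1 level, against 24.2% in WT. Fos, the best known member, made up 1.77% to 2.39% of it. Fosl2 did not pass the edgeR quasi-likelihood test for Trp53 loss described below (log2 change -0.88, SE 0.189, Benjamini-Hochberg adjusted p = 0.0635). Jund, with 747 to 1007 counts, had log2 ratios between -0.16 and 0.13 for the single losses.

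**Figure D2:**
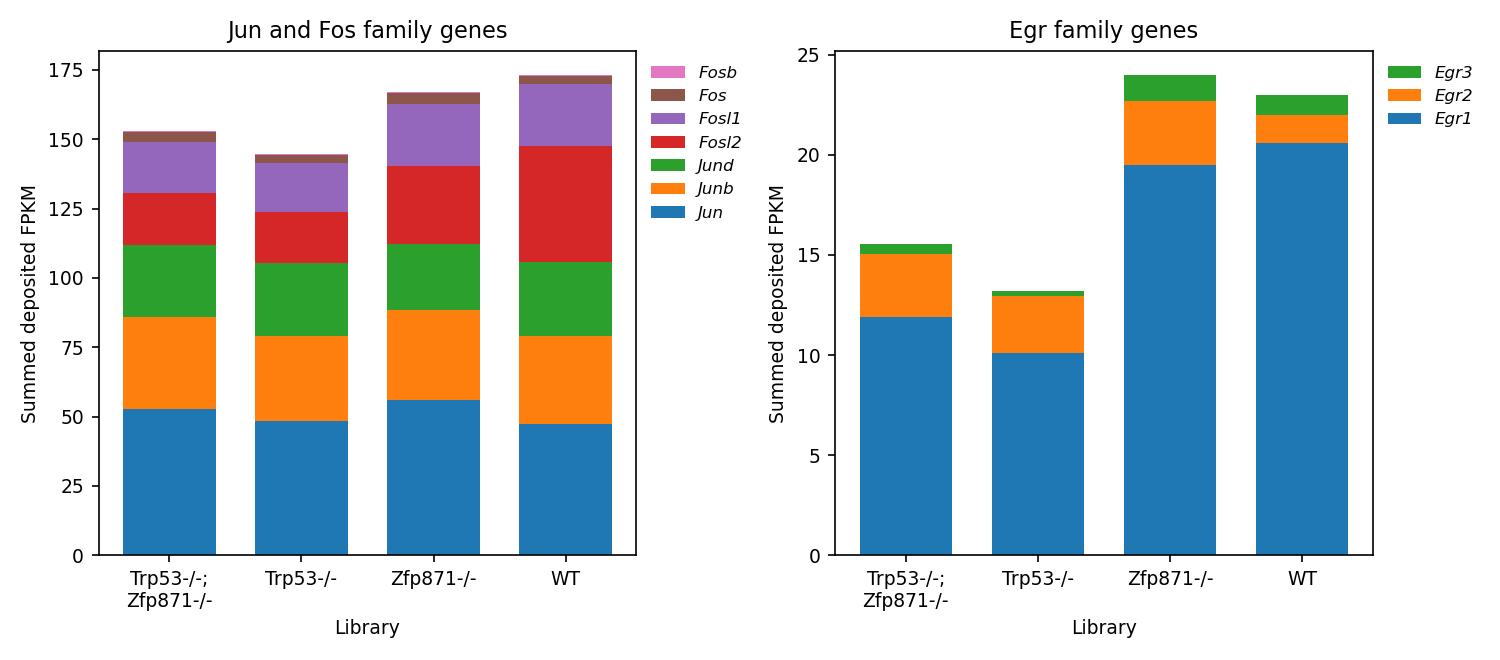
Deposited FPKM summed over the Jun and Fos family genes (left) and over Egr1 to Egr3 (right), 1 bar per library and 1 colour per gene. The Jun genes fill a like height in each library, while Fosl2 is tallest in WT (42.0 FPKM). Egr1 is about as tall in Zfp871-/- as in WT (19.5 and 20.6 FPKM) and shorter in the double null and Trp53-/- (11.9 and 10.1 FPKM).

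Among the Egr genes, zinc finger factors that carry growth signals to later genes, the members went different ways. Egr1 (chromosome 18, 34859823 to 34864984), the most abundant of them, had 1238 counts in the double null, 992 in Trp53-/-, 1648 in Zfp871-/- and 1752 in WT. These are 53.4 and 45.5 CPM without Trp53, against 87.6 and 93.0 CPM with it. The log2 ratio for Trp53 loss was -1.03 (-1.15 to -0.92) in Trp53-/- against WT and -0.71 (-0.82 to -0.61) in the double null against Zfp871-/-, and these pairs share no library. For Zfp871 loss it was 0.23 (0.11 to 0.35) in the double null against Trp53-/- and -0.09 (-0.18 to 0.01) in Zfp871-/- against WT.

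Egr3, a relative known for its role in muscle spindles and T cells, lay in the same direction as Egr1 on far fewer reads. Egr3 (chromosome 14, 70077203 to 70082614) had 52 counts in the double null, 24 in Trp53-/-, 107 in Zfp871-/- and 81 in WT. That is 2.24 and 1.1 CPM without Trp53, against 5.69 and 4.3 CPM with it. The log2 ratio for Trp53 loss was -1.88 (-2.69 to -1.29) in Trp53-/- against WT and -1.31 (-1.85 to -0.85) in the double null against Zfp871-/-. In both Trp53 backgrounds the library without Zfp871 was the higher one, with log2 ratios of 0.97 (0.3 to 1.79) in the double null against Trp53-/- and 0.4 (-0.03 to 0.84) in Zfp871-/- against WT. Only 0.924% of genes had a ratio at or above that of Egr3 in the double null against Trp53-/-, a rank that few counts make imprecise.

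Egr2, which drives myelination in Schwann cells and patterns the hindbrain, did not follow Egr1. Egr2 (chromosome 10, 67535475 to 67542188) had 247 counts in the double null, 212 in Trp53-/-, 205 in Zfp871-/- and 90 in WT, or 10.7, 9.72 and 10.9 CPM, against 4.78 CPM in WT. WT was the low library, and the other 3 lay close together. The log2 ratio was 1.17 (0.83 to 1.56) in Zfp871-/- against WT, 1.01 (0.66 to 1.4) in Trp53-/- against WT and 1.14 (0.8 to 1.52) in the double null against WT, 3 ratios that share the WT library. Without the WT library, the ratio was 0.13 (-0.14 to 0.4) in the double null against Trp53-/- and -0.03 (-0.31 to 0.24) in the double null against Zfp871-/-, which was 0.11 with total counts. Egr2 was the 1 member at least 2-fold higher than WT in all 3 other libraries, as were 2.06% of all genes. Within the Egr family, Egr1 stood at 3.8, 3.55 and 6.09 times Egr2 in FPKM in the double null, Trp53-/- and Zfp871-/-, against 14.8 times in WT. The stretch before a RefSeq start of Egr2 is shown because it holds a match to the CArG box, in capitals. Binding of SRF there was not measured.
Egr2 (chr10:67537619-67537868, plus strand): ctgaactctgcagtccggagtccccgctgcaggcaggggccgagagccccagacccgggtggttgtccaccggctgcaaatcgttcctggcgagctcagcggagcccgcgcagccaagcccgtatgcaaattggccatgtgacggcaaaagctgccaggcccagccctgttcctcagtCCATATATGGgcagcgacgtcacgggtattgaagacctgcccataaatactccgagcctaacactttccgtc

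This start lies inside the longer annotated transcripts of Egr2. Of the 5 RefSeq windows of Egr2, 4 hold a CArG box, 3 of them the same CCATATATGG, since these windows overlap, and 1 CCTTTTTTGG. The window before the outermost start held none. Egr2 was the 1 member of the 7 with a CArG box in its windows. Bases further upstream than these windows were not searched, and Fosl1, Egr1 and Egr3 were not searched at all. A CArG box there would have been missed, so the search cannot tell whether the box is particular to Egr2.

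Atf3, a bZIP factor of the stress response that is known as a p53 target in human cells, was higher and not lower where Trp53 was lost. Atf3 (chromosome 1, 191170296 to 191218039) had 168 counts in the double null, 145 in Trp53-/-, 54 in Zfp871-/- and 42 in WT. That is 7.24 and 6.65 CPM without Trp53, against 2.87 and 2.23 CPM with it. The log2 ratio for Trp53 loss was 1.54 (1.07 to 2.11) in Trp53-/- against WT and 1.31 (0.89 to 1.81) in the double null against Zfp871-/-. In these pairs 4.84% and 3.61% of genes had a ratio at or above that of Atf3. For Zfp871 loss both intervals included an equal level, with ratios of 0.12 (-0.21 to 0.45) in the double null against Trp53-/- and 0.35 (-0.24 to 0.98) in Zfp871-/- against WT. The bases before its RefSeq start are shown because Atf3 is the member most above WT in Trp53-/- and, in human cells, a p53 target. This start lies inside the annotated span of Atf3 and not at its outer end. None of the motifs searched matched there, so there are no capitals.
Atf3 (chr1:191183341-191183583, minus strand): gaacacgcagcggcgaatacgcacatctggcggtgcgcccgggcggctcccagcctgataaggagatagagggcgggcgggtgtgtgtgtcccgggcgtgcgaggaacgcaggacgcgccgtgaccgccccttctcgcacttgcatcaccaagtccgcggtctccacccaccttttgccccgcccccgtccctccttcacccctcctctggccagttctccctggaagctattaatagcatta

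Nr4a1 encodes Nur77, an orphan nuclear receptor induced by growth factors and, in lymphocytes, by the antigen receptor. Nr4a1 (chromosome 15, 101254269 to 101274795) had 496 counts in the double null, 456 in Trp53-/-, 500 in Zfp871-/- and 222 in WT. As with Egr2, WT was the low library, with 11.8 CPM, against 21.4, 20.9 and 26.6 CPM in the double null, Trp53-/- and Zfp871-/-. The log2 ratio was 1.17 (0.94 to 1.41) in Zfp871-/- against WT, 0.82 (0.59 to 1.07) in Trp53-/- against WT and 0.85 (0.63 to 1.09) in the double null against WT. Without the WT library, it was 0.03 (-0.15 to 0.22) in the double null against Trp53-/- and -0.31 (-0.5 to -0.13) in the double null against Zfp871-/-, which with total counts was -0.17 (-0.35 to 0.01). The stretch before a RefSeq start of Nr4a1, which lies inside the annotated span of the gene, is shown for its EGR element. The element reads CGCCCCCGC on this strand and is given in capitals.
Nr4a1 (chr15:101266596-101266845, plus strand): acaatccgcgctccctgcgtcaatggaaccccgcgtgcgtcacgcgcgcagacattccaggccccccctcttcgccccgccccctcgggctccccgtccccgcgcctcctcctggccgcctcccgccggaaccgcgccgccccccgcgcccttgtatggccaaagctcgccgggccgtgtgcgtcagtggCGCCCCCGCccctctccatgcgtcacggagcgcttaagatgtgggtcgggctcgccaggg

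Fosb was the other member with an EGR element, GCGGGGGCG, in its window. The CRE, the AP-1 element and the p53 half-site matched none of the 7 members' windows, which says only that these letters are not there.

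**Figure D3:**
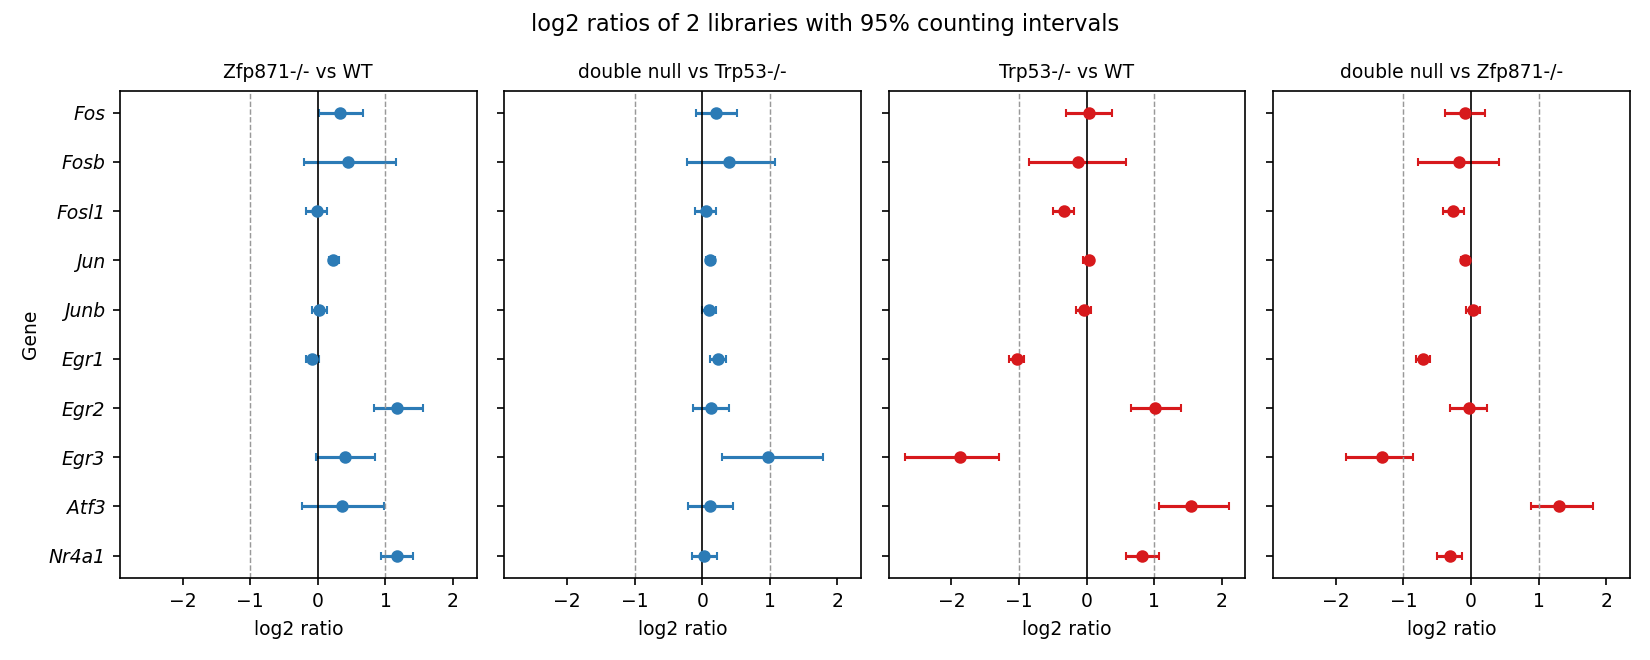
log2 ratio of TMM-scaled levels for each gene in 4 pairs of libraries, with exact binomial 95% intervals for counting error only; dashed lines mark 2-fold. For Zfp871 loss (blue) Egr2 and Nr4a1 lie past 2-fold in Zfp871-/- against WT (1.17 each) and near 0 in the double null against Trp53-/-. For Trp53 loss (red) Egr3 lies at -1.88 and -1.31 and Atf3 at 1.54 and 1.31.

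Counts of members past 2-fold are given beside the shares of all genes, and 10 genes are too few to say whether the family stood out. In Zfp871-/- against WT, 2 of the 10 members (Egr2 and Nr4a1) reached 2-fold upward and 0 downward, where 3.52% of all genes did so upward and 3.98% downward. In the double null against Trp53-/-, 0 of 10 reached 2-fold in either direction, where 0.819% of all genes did so upward and 1.01% downward. In Trp53-/- against WT, 2 members (Atf3 and Egr2) reached 2-fold upward and 2 (Egr3 and Egr1) downward, where 8.9% of all genes did so upward and 8.88% downward. In the double null against Zfp871-/-, Atf3 reached 2-fold upward and Egr3 downward, 1 of 10 each way, where 5.51% of all genes did so upward and 6.33% downward. In the double null against WT, 2 of 10 (Atf3 and Egr2) reached 2-fold upward and 0 downward, where 8.79% of all genes did so upward and 9.23% downward. The median log2 ratio of the members was 0.34 in Zfp871-/- against WT, 0.13 in the double null against Trp53-/-, -0.01 in Trp53-/- against WT and -0.13 in the double null against Zfp871-/-, and the median of all genes was 0 in each. All 10 members lay above 0 in the double null against Trp53-/-, though by as little as 0.03, and the counting interval excluded an equal level for 4 of them, where it did so upward for 19% of all genes.

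The test took both backgrounds together. An additive model of Trp53 and Zfp871 loss, tested with edgeR's quasi-likelihood method, treats the 4 libraries as 2 without and 2 with each gene, with 1 residual degree of freedom and p adjusted over all 13306 genes by Benjamini-Hochberg. With Trp53 loss, Egr1 fell by 0.87 on the log2 scale (SE 0.128, edgeR adjusted p = 0.035), lower in both pairs. Atf3 had a log2 change of 1.45 (SE 0.277, edgeR adjusted p = 0.0518) and Egr3 of -1.63 (SE 0.341, edgeR adjusted p = 0.0614), both just short of the threshold of 0.05. Thus 1 of 10 members was called, where the test called 9.33% of all genes (5.01% rose and 4.31% fell). At an unadjusted p under 0.05 it was 3 of 10 members, where 31% of all genes passed. In counts, TMM scaling gave 667 genes that rose and 574 that fell; with total counts in place of TMM it called 884 that rose and 432 that fell. The other 7 members had edgeR adjusted p values of 0.191 to 0.972, and this includes Egr2 (log2 change 0.48, adjusted p = 0.388) and Nr4a1 (0.25, adjusted p = 0.643), whose ratios differed between backgrounds. For Zfp871 loss 0 of 10 members and 0 of all genes passed in edgeR, while 510 genes had an unadjusted p under 0.05, none of them a member; DESeq2 called 8 genes and limma-voom 0, and no member was among them. Both Trp53-null genotypes came from 1 kind of cross, so a difference of cross or litter cannot be told apart from Trp53 loss. The macrophage markers moved with Trp53 too (18 of 18 rose in the same test, and in WT all 18 had at least 1 count), and their part in the levels of Atf3, Egr1 and Egr3 was not tested.

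The ratios for Zfp871 loss differed most between the 2 Trp53 backgrounds for Egr2 and Nr4a1, each ratio resting on 1 library per genotype. The log2 ratio for Zfp871 loss without Trp53 minus that with it was -1.04 for Egr2 and -1.13 for Nr4a1, and lay between -0.23 and 0.57 for the other 8 members. Among all genes 9.75% differed by at least 1 in either direction. The difference could not be tested, because an interaction term leaves no residual degree of freedom. Both genes were lowest in WT. The summed macrophage markers stood at 1028, 1159 and 94.6 CPM in the double null, Trp53-/- and Zfp871-/-, against 81.5 CPM in WT. Other markers moved with the low WT values. The cartilage genes Col2a1 and Acan were highest in WT, with 11633 and 1919 counts. The epithelial and mesothelial markers past the filter were, like Egr2 and Nr4a1, mostly lower in WT, with median log2 ratios to WT of 1.03 for the double null, 2.48 for Trp53-/- and 2.43 for Zfp871-/-. The part of macrophages, cartilage cells, or epithelial and mesothelial cells in the levels of Egr2 and Nr4a1 was not tested.

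By the largest difference over the 3 log2 ratios to WT, some members were close to one another. Fos and Jun were nearest to each other (0.1), Fosb to Fos (0.15), Junb to Jun (0.21) and Egr2 and Nr4a1 to each other (0.29), while Egr3 (nearest Egr1, 0.85), Atf3 (nearest Nr4a1, 0.82) and Egr1 (nearest Fosl1, 0.69) had no close neighbour. Of the genes outside the family, Pdlim7, Otud3 and Mtf1 were nearest to Fos (0.032 to 0.043), but 69 genes lay within 0.1 of it. With 4 libraries such likeness is a description only.

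Other immediate early genes, 41 of 42 past the filter, were spread around 0 as the 10 were, with median log2 ratios of 0.05 in Zfp871-/- against WT and -0.07 in Trp53-/- against WT. With Trp53 loss 3 of these 41 fell and 1 rose in the edgeR test, where 4.31% of all genes fell and 5.01% rose. Btg2, an antiproliferative gene and known p53 target, fell by 2.93 (SE 0.129, edgeR adjusted p = 0.00861), and Klf4, a factor of growth arrest, fell by 1.17 (SE 0.108, edgeR adjusted p = 0.0196). Ptgs2, the inducible cyclooxygenase, fell by 1.57 (SE 0.181, edgeR adjusted p = 0.0254). Myc, the growth regulator, rose by 1.06 (SE 0.102, edgeR adjusted p = 0.0205), with 129 and 107 CPM in the double null and Trp53-/-, against 63.5 and 49.7 CPM in Zfp871-/- and WT. In Zfp871-/- against WT the extremes were Phlda1 (0.77) and Csrnp1 (0.76) above and Arc (-1.26) and Sgk1 (-0.99) below. The p53 target list, in which Btg2, Plk2 and Plk3 also stand, had 17 of 20 genes that fell and 0 that rose in the same test.

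Upstream of the family, 1 list was even and 1 was not. Of 25 genes of SRF, its partners and the MAP kinase pathway, 0 passed the edgeR test for Trp53 loss, where 9.33% of all genes did. At an unadjusted p under 0.05 it was 1 of 25, where 31% of all genes passed. In the 4 pairs that measure a single loss 0 of 25 reached 2-fold, where 0.819% to 8.9% of all genes did in each direction. Srf itself had 125, 112 and 119 CPM in the double null, Trp53-/- and Zfp871-/-, against 73.6 CPM in WT, so WT was again the low library. Its log2 ratio was 0.7 (0.6 to 0.79) in Zfp871-/- against WT and 0.61 (0.51 to 0.71) in Trp53-/- against WT. Of 19 growth factor receptors and ligands past the filter, 3 fell and 1 rose with Trp53 loss, against 4.31% and 5.01% of all genes. Pdgfa, a mitogen of fibroblasts, fell by 2.75 (SE 0.167, edgeR adjusted p = 0.0102), Ereg, a ligand of the EGF receptor, fell by 1.24 (SE 0.193, edgeR adjusted p = 0.0382), Igf1r fell by 0.68 (SE 0.109, edgeR adjusted p = 0.0398), and Met, the receptor of hepatocyte growth factor, rose by 0.83 (SE 0.118, edgeR adjusted p = 0.0339).

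Among the feedback inhibitors of the cascade, several had WT as their lowest library, as Egr2 and Nr4a1 did. Dusp4, a nuclear phosphatase of MAP kinases, had 90.5, 93.6 and 81.2 CPM in the double null, Trp53-/- and Zfp871-/-, against 23.1 CPM in WT. Spry4, an inhibitor of receptor signalling, had 28.3, 21.8 and 17.4 CPM, against 5.63 CPM in WT. Their log2 ratios in Zfp871-/- against WT were 1.81 (1.66 to 1.97) and 1.61 (1.31 to 1.96). Dusp6 and Spry2, chosen after their values were seen, had ratios of 0.96 and 0.95 in that pair. Dusp1 and Dusp14 went the other way, with 114 and 20.4 CPM in WT, above every other library. Dusp1 had log2 ratios of -0.66 in Zfp871-/- against WT and -1.52 in Trp53-/- against WT. Of the 17 genes of this list past the filter, 3 reached 2-fold upward and 1 downward in Zfp871-/- against WT. Of all genes 3.52% did so upward and 3.98% downward. In the edgeR test for Trp53 loss 0 of 17 passed, where 9.33% of all genes did. At an unadjusted p under 0.05 it was 5 of 17, where 31% of all genes passed. Without the WT library, in the double null against Trp53-/-, 0 of 17 were 2-fold apart. Of all genes only 0.819% were 2-fold higher and 1.01% lower in that pair, so this 0 says little about the list.

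**Figure D4:**
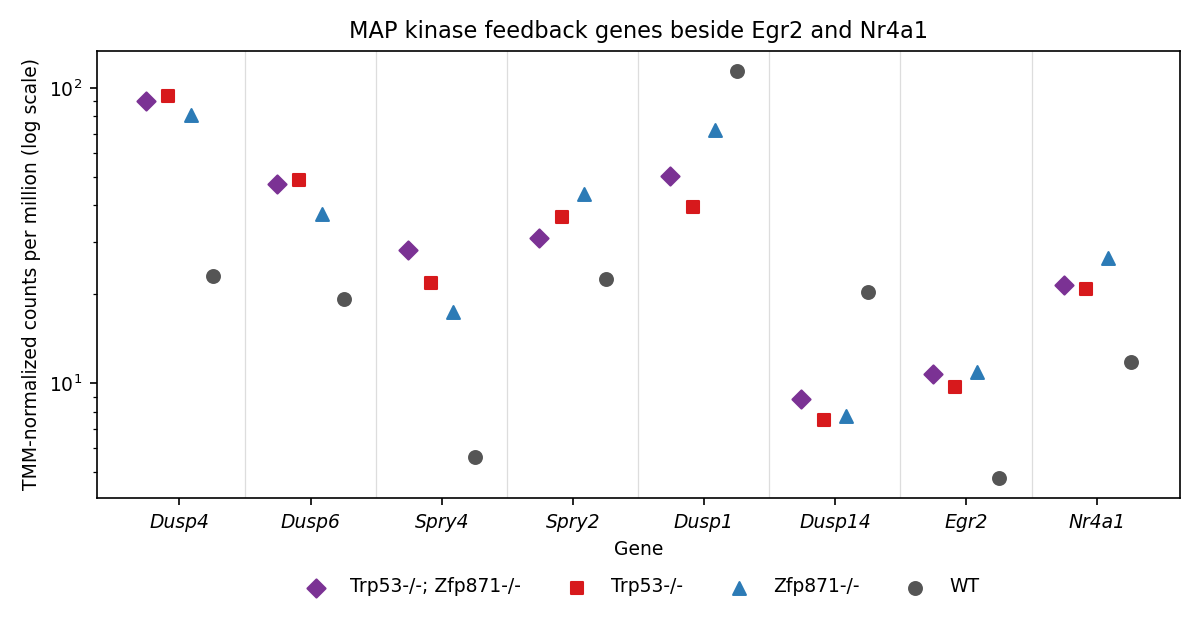
Levels of 6 MAP kinase feedback inhibitors beside Egr2 and Nr4a1, in TMM-scaled CPM on a log axis, 1 point per library. WT is the lowest library for Dusp4, Dusp6, Spry4, Spry2, Egr2 and Nr4a1 and the highest for Dusp1 and Dusp14. Dusp6 and Spry2 were chosen for display after their values were seen.

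Downstream, the 19 AP-1 target genes had a median log2 ratio of 0.15 in Zfp871-/- against WT and of -0.37 in Trp53-/- against WT. With Trp53 loss 4 of the 19 fell and 0 rose, where 4.31% of all genes fell and 5.01% rose. The cytokine Lif fell by 1.89 (SE 0.218, edgeR adjusted p = 0.0254) and Il11, a fibroblast cytokine, fell by 2.56 (SE 0.317, edgeR adjusted p = 0.0275). The protease inhibitor Timp1 fell by 1.11 (SE 0.13, edgeR adjusted p = 0.0254) and the urokinase gene Plau by 0.64 (SE 0.101, edgeR adjusted p = 0.0385). Matrix proteases differed in both directions without passing the test. Mmp3, stromelysin, had 770, 957 and 940 counts in the double null, Trp53-/- and Zfp871-/-, against 4365 counts in WT. Mmp9, which macrophages also make, had 83.7, 86.8 and 15.5 CPM, against 2.07 CPM in WT. Its log2 ratio to WT was 5.33 in Trp53-/- and 2.84 in Zfp871-/-. The summed macrophage markers stood at 1028, 1159 and 94.6 CPM, against 81.5 CPM in WT. The part of macrophages in the level of Mmp9 was not tested. The 13 heat shock genes, which handling stress raises together with immediate early genes, had medians of 0.14 in Zfp871-/- against WT and 0 in Trp53-/- against WT; 0 of them were 2-fold apart in the 4 pairs of a single loss, and 0 passed the edgeR test for Trp53 loss, where 4 had an unadjusted p under 0.05. The 15 cytoskeletal targets of SRF had medians of 0.32 and 0.1 in the same pairs. Of them 0 were past 2-fold and 0 past the edgeR test, where 4 had an unadjusted p under 0.05. In the 4 pairs of a single loss, 0.819% to 8.9% of all genes reached 2-fold in each direction. In the edgeR test for Trp53 loss 9.33% of all genes passed, and 31% had an unadjusted p under 0.05.

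**Figure D5:**
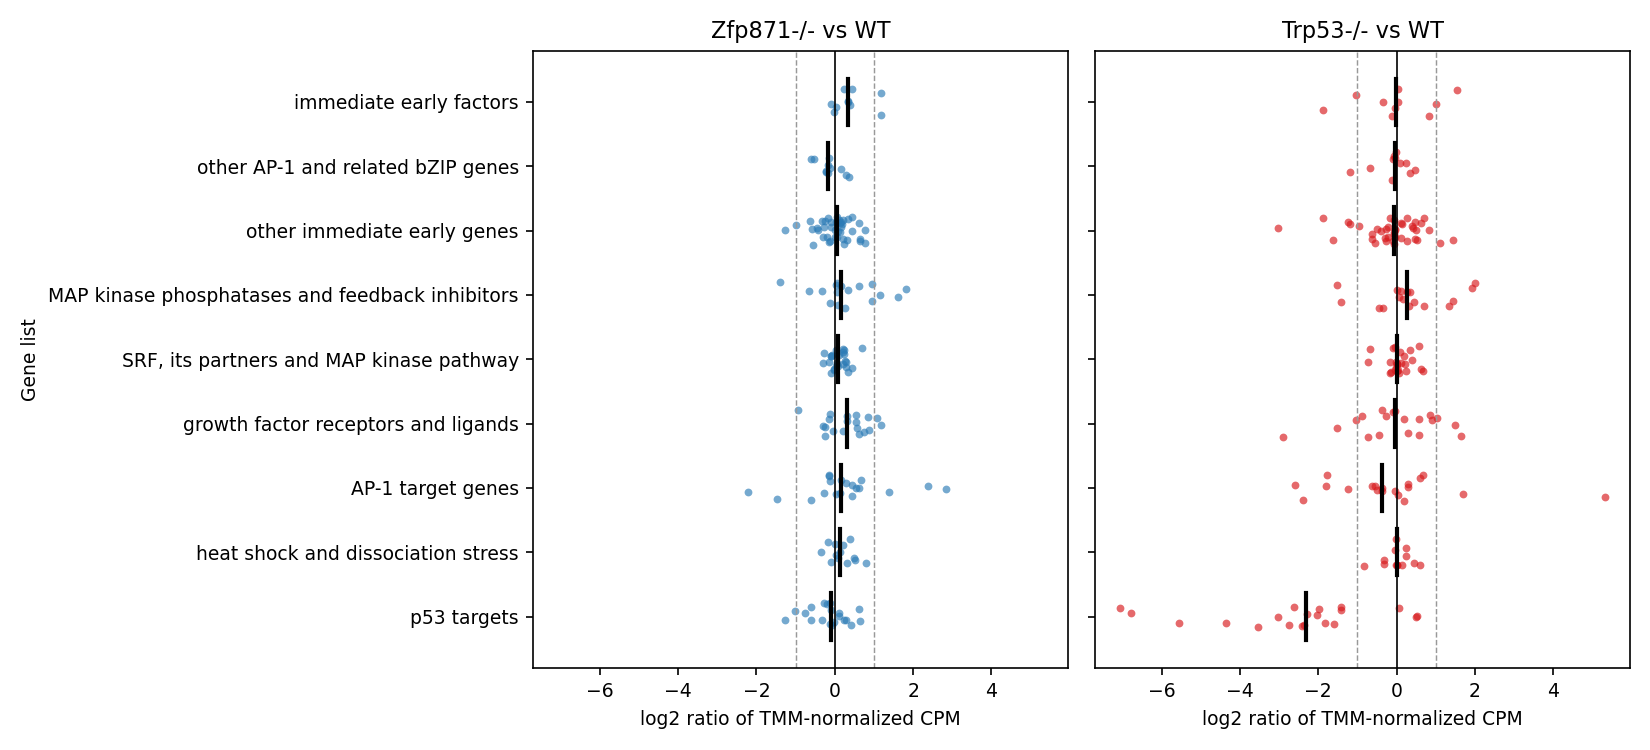
log2 ratios of TMM-scaled levels by gene list in Zfp871-/- against WT (left) and Trp53-/- against WT (right). 1 point is 1 gene past the filter on low counts, the black bar is the list median, dashed lines mark 2-fold, and both panels share the WT library. The immediate early factors have medians of 0.34 and -0.01, and the p53 targets of -0.1 and -2.32.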

How the data were processed

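RNA sequencing was analysed for 4 libraries, 1 per genotype. Raw counts per Ensembl gene were deposited by the authors. Per the submitters' processing notes the tools were featureCounts, STAR and fastp and the build mm10, with no versions; the strand setting is not given in the sources used here, nor is the annotation release. The authors also deposited values without a named unit, read as FPKM because each equals the count divided by 1 length per gene and 1 factor per library; 94.8% of 8543 lengths (genes with at least 200 counts in each library) matched GENCODE M21 exon lengths within 0.1%. Of 54532 IDs, 54495 were found in GENCODE M21 (GRCm38/mm10). Counts were scaled by TMM in edgeR 4.0.16 (R 4.3.3), and log2 ratios used a prior count of 2. Alternatives used DESeq2 1.42.0 and limma 3.58.1. SE is the log2 change over the root of the edgeR statistic. Members, lists and tests were chosen with earlier results of these data known. Genes named from a list are those past the test (up to 4) and the extremes in Zfp871-/- and Trp53-/- against WT with at least 50 counts, and not each is printed. Promoter sequences are from RefSeq (GRCm38.p6); no genome sequence beyond these windows was used.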

Additional observations from a re-analysis of the deposited data

Results flagged for a closer look

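Nr4a1 had ratios in opposite directions for Trp53 loss in the 2 Zfp871 backgrounds, beyond counting error in each under TMM scaling, which is what called for a closer look. The log2 ratio was -0.31 (-0.5 to -0.13) in the double null against Zfp871-/- and 0.82 (0.59 to 1.07) in Trp53-/- against WT, a difference of -1.13. With total counts as the scale, the ratio in the double null against Zfp871-/- was -0.17 (-0.35 to 0.01), which includes an equal level. With 1 library per genotype the difference was not tested.

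Of the other genes in the lists, leaving aside the cell type markers, 8 had opposite directions beyond counting error under TMM scaling and a difference of at least 1 on the log2 scale, again untested. Among all genes 9.75% differed by at least 1 in either direction. The share that also had opposite directions was not counted, so the 8 cannot be set against all genes. For Zfp871 loss without Trp53 minus with it, the difference was 1.0 for Dusp1, 1.14 for Sgk1 and 2.61 for the p53 target Perp (28 counts in the double null and 9 in Trp53-/-). In the same comparison it was -1.02 for Fgfr1, a receptor of fibroblast growth factors, -1.19 for Spry2, -1.42 for Spry1 and -1.38 for S1pr3, a receptor of sphingosine 1-phosphate. For Trp53 loss without Zfp871 minus with it, the difference was -1.23 for the growth factor gene Fgf2, -1.02 for Fgfr1, -1.19 for Spry2 and -1.38 for S1pr3. The Fgfr1 ratio in the double null against Zfp871-/- was only -0.12 (-0.16 to -0.08). That is less than the 0.14 by which total counts shifted the median of all genes upward in this pair, so its direction rests on the scale.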

How the results depend on the processing

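The call of Egr1 with Trp53 loss held under all 6 alternatives run (edgeR with DESeq2 size factors, with total counts, without the low-count filter or with Trp53 as the lone factor, DESeq2 and limma-voom), with adjusted p of 0.00251 to 0.0466. Atf3 passed in 5 of them (0.0161 to 0.0492) and not in DESeq2 (0.0776), and Egr3 passed without the low-count filter alone (0.0198, otherwise 0.0535 to 0.0979). Without that filter the test called 2304 genes for Trp53 loss, against 1241, and 6 for Zfp871 loss, and DESeq2 called 8 for Zfp871 loss. Of the 50 member ratios over the 5 pairs, which share libraries, 10 were at or past 2-fold. It was 9 to 11 under other scalings and prior counts, and 16 at or past 1.5-fold. In these pairs 0.819% to 9.23% of all genes reached 2-fold in each direction, and all genes were not counted at 1.5-fold. With total counts, which shifted the median of all genes by 0.14 in the double null against Zfp871-/-, 5 signs of near-zero member ratios turned, and 1 member instead of 2 differed by at least 1 between backgrounds. No paired analysis was possible because each genotype has 1 library, and for the same reason no replicate could be left out. Fosb and Egr3, with 24 to 107 counts, are limited by depth.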
